A study of Mus musculus with 12 samples.

Results

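Most of the genes described here build or drive the motile cilia of ependymal cells, the epithelium that lines the brain ventricles. Rarres2, Mia and Sspo encode secreted proteins instead. All genes were chosen by name: 31 gene symbols known for ependymal cells and their cilia were matched to gene identifiers of the deposited count table, and all 31 were found among its 43629 identifiers. Neonatal mice received an intracerebroventricular injection of a recombinant adeno-associated virus (rAAV) carrying a collagen domain construct, or of PBS, and RNA from pulverized forebrain was sequenced at 3 months. The 12 libraries fall into 4 labelled groups of 3: PBS females, PBS males, collagen domain females and collagen domain males; strain and genotype are not given in the sources used here. The promoter that drives the construct is not given in the sources used here. By label the PBS groups received PBS only, and no labelled group received a vector without the construct. Vector and construct therefore cannot be told apart. The series title names a fusion with the collagen domain of C1qTNF3. The labels describe 1 frozen hemibrain of a mouse but do not tie each library to its own mouse, so p-values measure the spread between these libraries, which may be technical in part.

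A motile cilium is a microtubule axoneme moved by rows of outer and inner dynein arms, which a central pair of microtubules, its projections and the radial spokes regulate. FOXJ1, with factors of the RFX family, switches on the genes that encode these parts, and dynein arms are assembled in the cytoplasm before they are carried into the cilium. In the brain, beating ependymal cilia move cerebrospinal fluid along the ventricle walls.

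Library labels were checked first, because every comparison rests on them. C1qtnf3 had 2612 to 4966 reads in 4 of the 6 libraries labelled collagen domain, but 23 reads in collagen domain female 1 and 8 in collagen domain female 3, as labelled. Among the 6 PBS libraries, 4 had 12 to 28 reads, whereas PBS female 2 had 1071 and PBS male 1 had 2675. Xist and Ddx3y reads went against the sex label of PBS female 2, PBS male 1, collagen domain female 1 and collagen domain male 3. Group names below are therefore labels, and 5 libraries go against a label. Libraries held 39272127 to 52323985 reads, with 24489 to 25284 genes detected and 7.37% to 9.86% of reads on mitochondrially encoded genes. A list of 22 hindbrain and cerebellum genes summed to 299 to 648 CPM (reads per gene scaled to library size) in 5 libraries (PBS female 2, PBS female 3, PBS male 3, collagen domain female 2 and collagen domain male 2) and to 19.7 to 46.7 CPM in the other 7, although the extracted tissue is described as forebrain.

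Of the 31 genes, 30 passed the filter on low counts and were tested. Mia, which encodes a secreted protein, had 0 reads in 9 libraries, 1 read in PBS male 1, 1 in PBS male 2 and 2 in collagen domain female 1, and was not tested. The ependymal markers Ccdc153, Tmem212, Rarres2 and Dynlrb2 were read in every library, with lowest levels of 1.71, 0.937, 2.55 and 0.639 CPM.

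The promoters of these genes are shown because they are the sequences through which RFX factors act on ciliary genes. RefSeq promoter entries (GRCm38.p6, 250 bases before to 50 bases after a transcript start) were matched for 25 of the 31 genes, and Foxj1, Rsph1, Rsph4a, Cfap54, Cfap65 and Rarres2 had no entry. RFX proteins bind the X-box, whose conserved core is GTTGCC, or GGCAAC on the other strand. The core stood in the first promoter of 10 of the 25 genes (40%), against 12.7% of 27025 genes. In these genes the core lies before the start in Hydin, Tekt1, Cfap44, Spag16, Drc1, Dynlrb2 and Ccdc153, and after the start in Spef2, Zmynd10 and Tekt4. Sequences are printed 5′ to 3′ along the gene's strand, with each core in capitals. The whole promoters are those of Hydin, which encodes a central pair protein (chr8:110266727-110267026, plus strand), and Tekt1, which encodes a filament protein of the axoneme (chr11:72361833-72362132, minus strand):
Hydin: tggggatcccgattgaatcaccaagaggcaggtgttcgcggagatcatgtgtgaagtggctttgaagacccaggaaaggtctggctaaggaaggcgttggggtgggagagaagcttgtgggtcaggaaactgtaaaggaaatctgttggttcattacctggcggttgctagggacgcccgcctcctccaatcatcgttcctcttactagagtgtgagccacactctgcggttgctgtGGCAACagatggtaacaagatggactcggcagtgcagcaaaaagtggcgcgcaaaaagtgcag
Tekt1: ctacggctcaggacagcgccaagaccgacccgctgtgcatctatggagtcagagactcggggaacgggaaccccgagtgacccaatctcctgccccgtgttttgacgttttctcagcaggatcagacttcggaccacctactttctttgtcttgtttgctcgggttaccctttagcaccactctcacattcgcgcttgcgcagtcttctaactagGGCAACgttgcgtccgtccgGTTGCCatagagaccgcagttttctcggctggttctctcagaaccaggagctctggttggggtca

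The shorter stretches hold the core and its flanks in the inner arm tether gene Cfap44 (chr16:44394655-44394800, plus strand), the central pair gene Spag16 (chr1:69826844-69826887, plus strand), the nexin-dynein regulatory complex gene Drc1 (chr5:30281367-30281402, plus strand), the dynein light chain gene Dynlrb2 (chr8:116504949-116504984, plus strand) and the ependymal marker Ccdc153 (chr9:44240510-44240545, plus strand):
Cfap44: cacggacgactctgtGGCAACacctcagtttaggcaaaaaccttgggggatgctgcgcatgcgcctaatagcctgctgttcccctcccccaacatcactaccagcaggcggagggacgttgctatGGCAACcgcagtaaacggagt
Spag16: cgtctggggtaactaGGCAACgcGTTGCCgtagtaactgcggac
Drc1: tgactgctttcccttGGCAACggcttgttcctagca
Dynlrb2: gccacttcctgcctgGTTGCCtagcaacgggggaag
Ccdc153: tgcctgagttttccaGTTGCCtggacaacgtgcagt

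The core began 13 bases before the start in Hydin, 35 and 15 in Tekt1, 129 and 19 in Cfap44, 111 and 103 in Spag16, 11 in Drc1, 51 in Dynlrb2 and 152 in Ccdc153. Tekt1, Cfap44 and Spag16 each held 2 copies. In Tekt1 and Spag16 the copies lie on opposite strands. The full palindromic X-box consensus, which can contain the core, was searched only as a fixed pattern with a spacer of set length. That pattern was in 0 of the 25 promoters, against 0.444% of all genes. Forms with another spacer length or with a change in the fixed letters were not searched. The 0 therefore does not show that these promoters lack a full X-box. A forkhead core, TGTTTAC or its complement GTAAACA, was in 2 of 25 (8%; Ak7 and Cfap43), against 3.55% of all genes. Both strands were searched for each motif. A match describes these letters only, and no match says only that they are not in this window.

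Levels were compared between genes per kilobase of exon. Rsph9, a radial spoke gene, was highest, with a mean of 6.25 CPM per kb over 12 libraries (range 5.22 to 7.86). Drc1 followed with 4.38 (3.72 to 4.87), below every Rsph9 value. The radial spoke gene Rsph1 (3.099 CPM per kb, 1.75 to 4.23) and Foxj1 (3.08, 1.98 to 4.09) came next, and their ranges overlapped each other and that of Drc1. Among outer dynein arm heavy chains, which are the ATP-driven motors, Dnah5, Dnah9 and Dnah11 had 0.406, 0.375 and 0.277 CPM per kb. The lowest tested genes were Hydin (0.130), the inner arm heavy chain gene Dnah12 (0.109) and Sspo (0.105), which encodes SCO-spondin, the main protein of Reissner's fibre, made by the subcommissural organ. Genes whose products work in 1 structure differed in this measure: the radial spoke genes ran from Rsph9 down to Rsph4a at 1.35 CPM per kb, and the central pair genes from Cfap54 at 0.81 to Hydin. The exon length combines the exons of all transcripts of a gene, and the RNA came from all cells of the tissue. Levels within ependymal cells were therefore not measured.

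These genes varied more between libraries than most genes did. Their median biological coefficient of variation, the edgeR estimate of variation beyond counting error after sex and treatment, was 0.226 for the 30 tested genes and 0.138 for all 19145 genes, and 29 of the 30 lay above the latter. The ratio of highest to lowest CPM had a median of 2.28 for the 30 genes and 1.53 for all genes. The 30 genes had mean levels of 1.03 (Dynlrb2) to 12.2 CPM (Ccdc39), and all genes were not matched to them in level. The part of expression level in this difference was not tested. Drc1 varied least, with a coefficient of 0.108 and a ratio of 1.31. The largest ratios were those of Sspo (4.37), Dnah12 (3.56) and the central pair gene Cfap54 (3.55). Bulk RNA cannot tell fewer ependymal cells from less RNA per cell, here or in the comparisons that follow.

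The variation was shared by many genes of the set. In the library labelled PBS male 2, 27 of 30 genes lay above their own mean over libraries, and 16 had their highest value there. In collagen domain male 3, 29 of 30 lay above their mean and 7 were highest. In collagen domain female 3, PBS female 3 and collagen domain female 2, 24, 23 and 19 of 30 lay above their mean. At the other end, 1 of 30 lay above its mean in PBS female 2, 4 in collagen domain male 1, 9 in PBS male 3 and 10 in PBS female 1. PBS male 3 held the lowest value of 11 genes and PBS female 1 that of 7. Libraries at both ends carry the PBS label, and libraries at both ends carry the collagen domain label. The share of all genes above their own mean in each library was not counted. These counts therefore describe the set and do not show a trait particular to it. PBS female 1 and PBS male 3 also had the highest mitochondrial shares, 9.86% and 9.67%, against 7.37% to 8.83% elsewhere, and the part of this difference in the low values was not tested.

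**Figure D1:**
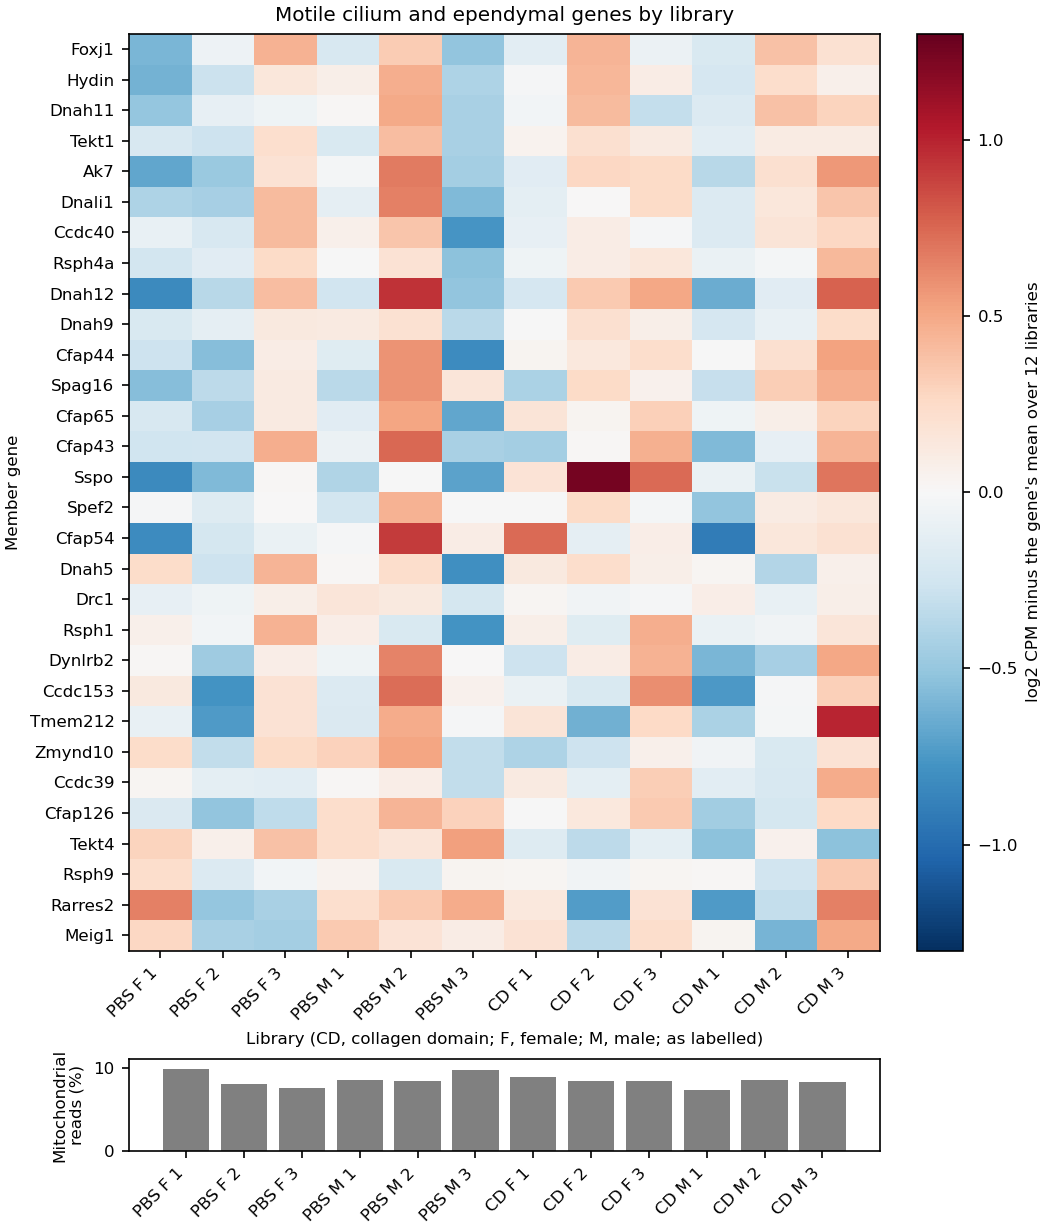
Log2 CPM of 30 genes (vertical axis) in each of 12 libraries (horizontal axis) as the difference from the gene's own mean, red above and blue below, with the percent of reads on mitochondrially encoded genes as bars underneath. PBS male 2 is red for 27 of 30 genes and PBS female 2 blue for 29; the genes are ordered by their correlation with Foxj1.

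Dnah12, which encodes an inner arm motor, had 0.668, 0.937 and 1.62 CPM in PBS females 1 to 3, 1.02, 2.38 and 0.837 in PBS males, 1.04, 1.55 and 1.75 in collagen domain females and 0.762, 1.095 and 2.11 in collagen domain males. Its highest libraries, PBS male 2 and collagen domain male 3, are those in which the most genes of the set had their highest value. Cfap54 had 6.33, 9.56 and 10.5 CPM in PBS females, 11.1, 21 and 11.9 in PBS males, 18.7, 10.3 and 11.9 in collagen domain females and 5.92, 12.4 and 12.8 in collagen domain males. For both genes the 4 groups overlapped.

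The comparison of collagen domain with PBS over both sexes asks whether these genes differed between the labelled treatments, which the C1qtnf3 reads follow in 8 of 12 libraries. No gene of the set passed the test (edgeR quasi-likelihood test with sex as covariate, Benjamini-Hochberg adjusted over 19145 genes, threshold 0.05), where 0% of all genes were called. At an unadjusted p under 0.05, 2 of the 30 genes, Tekt4 and Sspo, were found, against 354 of all genes (1.85%). Fold changes were above 0 for 23 of the 30 genes, with a median log2 fold change of 0.08, while 50.1% of all genes were above 0 with a median of 0.00. DESeq2 also called 0 of the 30.

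Tekt4 encodes a tektin, a filament protein inside the axoneme's microtubules. It had 1.29, 1.104 and 1.38 CPM in PBS females, 1.24, 1.18 and 1.54 in PBS males, 0.927, 0.821 and 0.955 in collagen domain females and 0.712, 1.095 and 0.710 in collagen domain males. The 6 PBS libraries lay above the 6 collagen domain libraries without overlap, as they did, in either direction, for 0.0679% of all genes, but the nearest pair was 1.104 CPM (53 reads, PBS female 2) against 1.095 CPM (47 reads, collagen domain male 2). The means were 1.29 ± 0.156 and 0.870 ± 0.151 CPM (SD, n = 6 each), a log2 fold change of -0.56 (SE 0.145, edgeR unadjusted p = 0.002, adjusted p = 0.9999). The gap followed the labels and not the C1qtnf3 reads. PBS female 2 and PBS male 1, whose C1qtnf3 reads were high, lay on the PBS side at 1.104 and 1.24 CPM. Collagen domain females 1 and 3, whose C1qtnf3 reads were low, lay on the collagen domain side at 0.927 and 0.955 CPM. Without these 4 libraries that go against the treatment label the log2 fold change was -0.70 (SE 0.213, edgeR adjusted p = 0.818). The other tektin, Tekt1, had a fold change of 0.13 on the log2 scale.

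Sspo had 0.835, 0.999 and 1.53 CPM in PBS females, 1.15, 1.51 and 0.916 in PBS males, 1.72, 3.65 and 2.56 in collagen domain females and 1.42, 1.23 and 2.48 in collagen domain males. Collagen domain males 1 and 2 lay within the PBS range, and the other 4 collagen domain libraries lay above it. The log2 fold change was 0.89 (SE 0.261, edgeR unadjusted p = 0.0051, adjusted p = 0.9999), from 1.16 ± 0.299 to 2.18 ± 0.903 CPM (SD, n = 6 each). The 2 libraries labelled collagen domain whose C1qtnf3 reads were low, females 1 and 3, were among the 4 that lay above the PBS range. Spdef, a transcription factor gene from a list of 10 subcommissural organ and pineal genes, had 0.159 ± 0.0576 and 0.261 ± 0.0799 CPM (SD, n = 6 each; log2 fold change 0.72, SE 0.287, edgeR unadjusted p = 0.0275, adjusted p = 0.9999). Of the 8 tested genes on that list 3 were above 0, and its summed level was 13.5 to 19.2 CPM in PBS and 12.1 to 18.3 in collagen domain libraries.

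Cfap44, which encodes part of the tether that holds inner dynein arms, and Zmynd10, needed to assemble dynein arms, had the next smallest p-values. Cfap44 had 3.24, 2.64 and 4.17 CPM in PBS females, 3.49, 5.89 and 2.20 in PBS males, 4.01, 4.30 and 4.59 in collagen domain females and 3.91, 4.52 and 5.63 in collagen domain males, with a log2 fold change of 0.32 (SE 0.201, edgeR unadjusted p = 0.138). Without PBS male 2 it was 0.51 (edgeR unadjusted p = 0.0098), and without PBS male 3 it was 0.20. Zmynd10 had 2.44, 1.64 and 2.45 in PBS females, 2.54, 2.97 and 1.65 in PBS males, 1.55, 1.71 and 2.17 in collagen domain females and 1.99, 1.79 and 2.35 in collagen domain males, with a log2 fold change of -0.25 (SE 0.163, edgeR unadjusted p = 0.155). The treatment groups overlapped for both.

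Foxj1, the gene of the transcription factor itself, had 5.20, 7.47 and 10.7 CPM in PBS females, 6.78, 9.84 and 5.47 in PBS males, 7.14, 10.7 and 7.45 in collagen domain females and 6.83, 10.2 and 9.002 in collagen domain males. Its means of 7.58 ± 2.27 and 8.56 ± 1.66 CPM (SD, n = 6 each) differed by less than the spread between libraries, with a log2 fold change of 0.17 (SE 0.195, edgeR unadjusted p = 0.388). With 1 library left out it ranged from 0.08 (without PBS female 1) to 0.31 (without PBS female 3). The outer arm genes Dnah5, Dnah9 and Dnah11 had fold changes of 0.01, 0.07 and 0.19 on the log2 scale, and the central pair genes Hydin, Spef2, Spag16, Cfap54 and Cfap65 of 0.17, -0.01, 0.12, 0.06 and 0.23. Among radial spoke genes, Rsph1, Rsph4a and Rsph9 had 0.12, 0.15 and 0.04. Rarres2, which encodes the secreted protein chemerin, had -0.22.

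No gene of the related lists was called either. Of 74 tested genes on a list of other motile cilium genes, 0 were called, 0 had an unadjusted p under 0.05 and 48 were above 0 (median 0.04); the smallest p-values were those of the inner arm motor gene Dnah10 (log2 fold change 0.32, edgeR unadjusted p = 0.108), Trp73 (0.21) and Dnah3 (0.30). Of 40 ciliary transport and primary cilium genes, 0 were called and 24 were above 0 (median 0.01). Of 26 other ependymal genes, 0 were called and 19 were above 0 (median 0.06). On the list of 20 choroid plexus epithelium genes, the neighbouring ventricular epithelium that also expresses Foxj1, 0 were called, 1 had an unadjusted p under 0.05 (Sostdc1, log2 fold change 0.60, edgeR unadjusted p = 0.0255) and 20 were above 0 (median 0.28), with a summed level of 783 to 1638 CPM in PBS and 993 to 1883 CPM in collagen domain libraries. Summed levels of the cilium set itself were 104 to 160 and 106 to 155 CPM. The part of choroid plexus content in the set's fold changes was not tested.

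**Figure D2:**
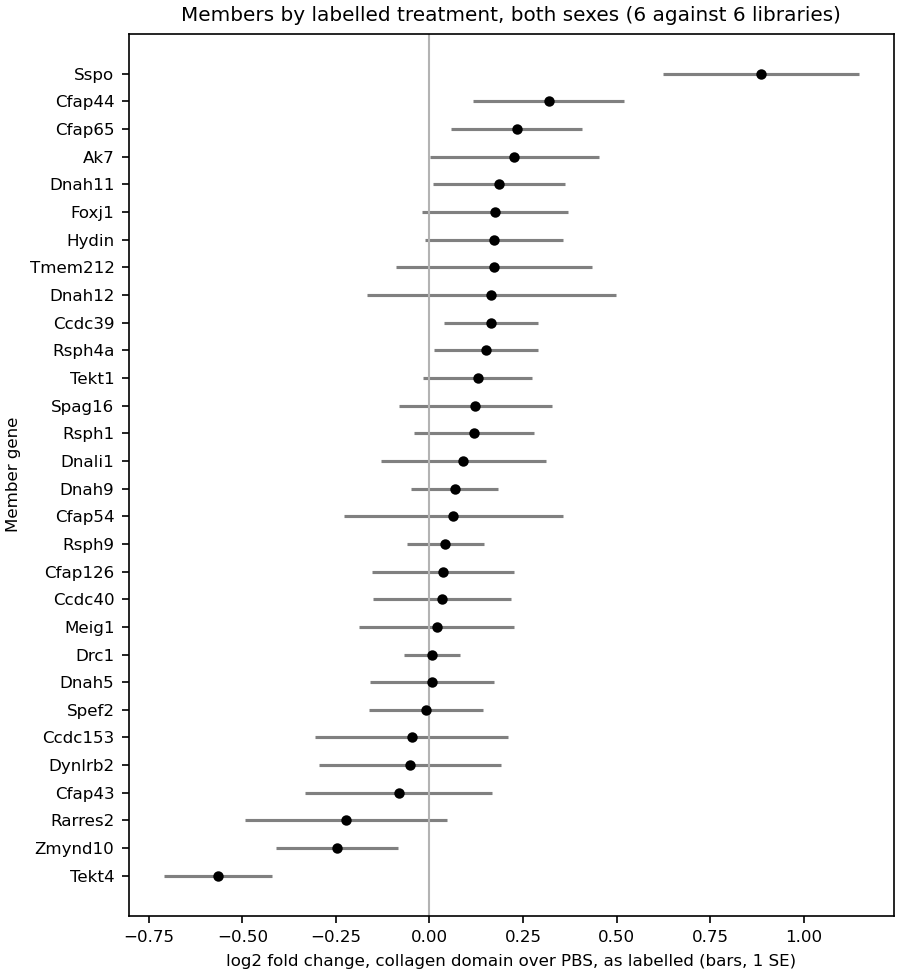
Log2 fold change of collagen domain over PBS, as labelled, for 30 genes (points, with bars of 1 SE) from 6 against 6 libraries. Sspo at 0.89 and Tekt4 at -0.56 lie apart from the others, which run from -0.25 to 0.32.

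When the 4 libraries against the treatment label were left out, 17 of 30 genes were above 0 (median 0.03). When the 5 libraries against either label were left out, 13 were above 0 (median -0.05) and 4 had an unadjusted p under 0.05 (Rarres2 -0.93, Tekt4 -0.63, Ccdc153 -0.61 and Tmem212 -0.56 on the log2 scale), with edgeR adjusted p of 0.664 each, while 5.7% of all genes passed that unadjusted threshold. Rarres2, Ccdc153 and Tmem212 had -0.22, -0.05 and 0.17 over all 12 libraries.

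Between sexes by label, no gene of the set was called, where 0% of all genes were, and 0 of 30 had an unadjusted p under 0.05, against 1.97% of all genes. The median log2 difference, male minus female, was 0.05 and 21 of 30 genes were above 0, while all genes had a median of -0.00. Without the 5 libraries against either label, 14 of 30 were above 0 and the median was -0.00. Rsph1 had 4.34, 4.06 and 5.70 CPM in PBS females, 4.42, 3.63 and 2.41 in PBS males, 4.38, 3.71 and 5.80 in collagen domain females and 3.91, 4.03 and 4.63 in collagen domain males (log2 difference -0.29, SE 0.161, edgeR unadjusted p = 0.0994). Spag16 had 1.09, 1.27 and 1.75 in PBS females, 1.26, 2.45 and 1.81 in PBS males, 1.21, 1.92 and 1.68 in collagen domain females and 1.302, 2.03 and 2.26 in collagen domain males (0.32, SE 0.204, edgeR unadjusted p = 0.144). The sexes overlapped for both genes.

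Within labelled females, 0 of the 30 genes were called for treatment, where 0% of all genes were, and 3 had an unadjusted p under 0.05 (Sspo, Cfap126 and Tekt4), against 1.46% of all genes. Sspo had a log2 fold change of 1.23 (SE 0.353, edgeR unadjusted p = 0.0049). Within labelled males, 0 of 30 were called, again where 0% of all genes were, and 2 had an unadjusted p under 0.05 (Tekt4 and Cfap126), against 1.7% of all genes. Tekt4 had a log2 fold change of -0.65 in males (SE 0.214, edgeR unadjusted p = 0.0109) and -0.48 in females.

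Cfap126, also called Flattop, encodes a protein of motile cilia. It had 1.63, 1.29 and 1.47 CPM in PBS females and 1.85, 2.05 and 2.38 in collagen domain females, and 2.19, 2.54 and 2.30 in PBS males and 1.35, 1.58 and 2.24 in collagen domain males. The female groups did not overlap, as for 3 of the 30 genes (Tekt4, Cfap126 and Sspo) and 5.55% of all genes, and the male groups overlapped through collagen domain male 3. Among males, 1 of the 30 genes (Tekt4) did not overlap, and 4.95% of all genes. The log2 fold changes were 0.52 in females (SE 0.197, edgeR unadjusted p = 0.0237) and -0.44 in males (SE 0.197, edgeR unadjusted p = 0.0465), the latter from -0.67 to -0.29 with 1 library left out. In the test of the difference between the sexes' effects, 0 of 30 genes were called, where 0% of all genes were, and 2 had an unadjusted p under 0.05, against 1.37% of all genes. These were Cfap126 (male minus female effect -0.95, SE 0.279, edgeR unadjusted p = 0.0054, adjusted p = 1) and Cfap54 (-1.13, SE 0.496, edgeR unadjusted p = 0.0440). Of the 6 libraries labelled female, 3 go against a label, as do 2 of the 6 labelled male.

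**Figure D3:**
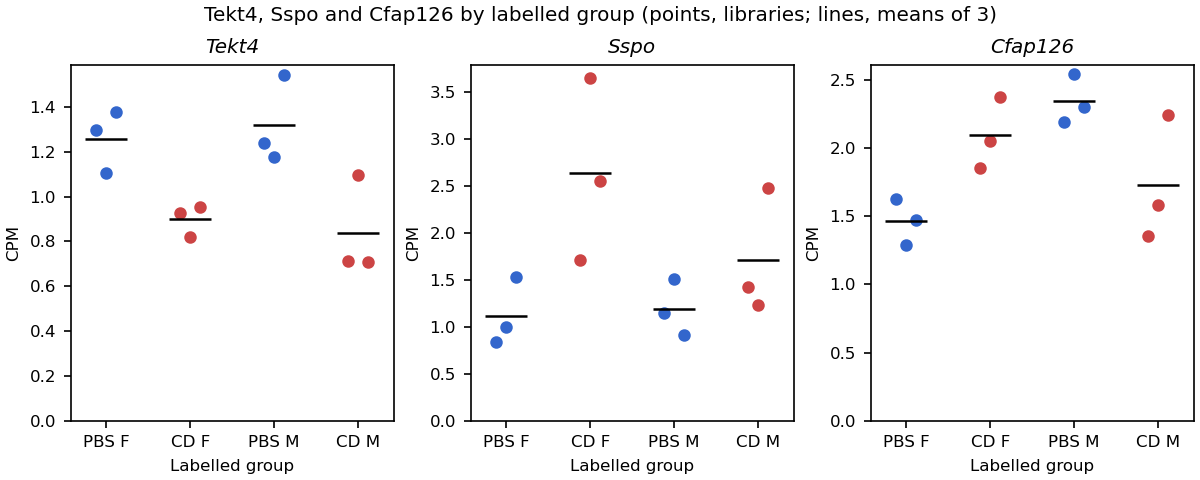
CPM of Tekt4, Sspo and Cfap126 (vertical axes) in each library by labelled group (F, female; M, male; CD, collagen domain), with lines at means of 3. Tekt4 is at 0.710 to 1.095 CPM in the collagen domain libraries and 1.104 to 1.54 in PBS, while Cfap126 is at 1.29 to 1.63 and 1.85 to 2.38 in PBS and collagen domain females and at 2.19 to 2.54 and 1.35 to 2.24 in males.

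Because the libraries differed whatever their labels, each gene's log2 CPM was correlated with that of Foxj1 over the 12 libraries. Of the other 29 tested genes of the set, 25 had a Pearson r above 0, with a median of 0.53, while the median of all 19144 other genes was 0.05. At a permutation p adjusted over those 19144 relations of under 0.05, 7 of the 29 had a positive r, against 3.18% of all genes, and 0 had a negative r, against 5.9%. The 7 were Hydin (r = 0.87), Dnah11 (0.84), Tekt1 (0.83), the adenylate kinase gene Ak7 (0.80), the inner arm light chain gene Dnali1 (0.78), the axonemal ruler gene Ccdc40 (0.78) and Rsph4a (0.75).

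Hydin had 1.48, 1.87 and 2.55 CPM in PBS females, 2.41, 3.202 and 1.73 in PBS males, 2.27, 3.11 and 2.45 in collagen domain females and 1.97, 2.68 and 2.39 in collagen domain males. Its lowest libraries, PBS female 1 and PBS male 3, were also those of Foxj1. Its r of 0.87 had a permutation p of 0.0002 and an adjusted p of 0.0435, with a Spearman rho of 0.80 (permutation p = 0.0028). For the other 6 genes the permutation p of r ran up to 0.0039 and the adjusted p from 0.0446 to 0.0480. Their rho was 0.68 to 0.78 (permutation p = 0.0037 to 0.0187). On ranks none of the 7 passed, with adjusted permutation p of 0.0807 to 0.117.

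The calls depended on which libraries were included. Without the 2 libraries farthest from the median of Foxj1, PBS female 3 and PBS female 1, the median r was 0.56 and Hydin's 0.85, but 0 genes passed, of the set or of all. With 1 library left out, 7 of the set passed without PBS female 2, collagen domain male 1 or collagen domain male 3. In these runs 4.58%, 5.69% and 7.32% of all genes passed. Without any other library 0 of the set passed, and 0 to 5 of all genes. The median r of the set stayed between 0.47 and 0.59 with 1 library left out. The mitochondrial share had an r of -0.60 with Foxj1 (permutation p = 0.0366, adjusted over 2 relations 0.0732; rho -0.53, permutation p = 0.0796, adjusted 0.159), and -0.02 without PBS female 1 and PBS male 3. Total reads had an r of 0.20 (permutation p = 0.53, rho 0.24, permutation p = 0.456). Given the mitochondrial share, the median partial r of the set was 0.54 and 0 genes passed. Given the level of hindbrain genes, it was 0.66 and 11 passed, against 5.54% of all genes. Within the 7 libraries low in hindbrain genes the median r was 0.72, and no value is given for the other 5, since correlations are given only over 6 or more libraries.

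**Figure D4:**
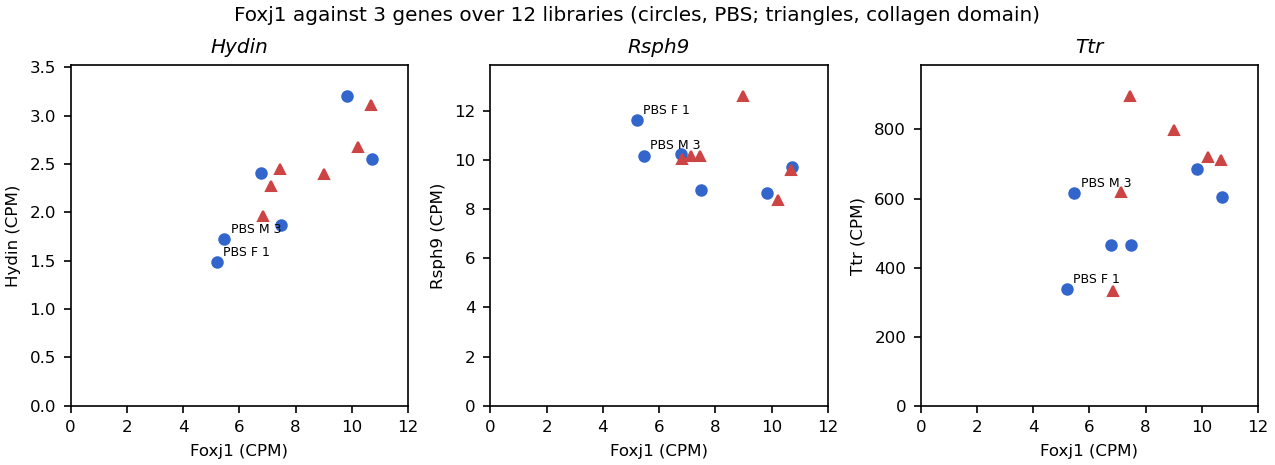
CPM of Hydin, Rsph9 and Ttr (vertical axes) against Foxj1 CPM (horizontal axes) in 12 libraries, circles for PBS and triangles for collagen domain. Hydin runs from 1.48 to 3.202 CPM in step with Foxj1 (r = 0.87), Rsph9 does not (r = -0.43), and PBS female 1 and PBS male 3 are lowest in Foxj1.

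Correlations were summarized by part of the cilium. Median r was 0.76 for the 2 inner arm genes, 0.72 for the 3 outer arm genes, 0.65 for the 2 tether genes and 0.63 for the 5 central pair genes. It was 0.38 for the 3 ruler and nexin-dynein regulatory complex genes, 0.32 for the 3 radial spoke genes and 0.28 for the 2 tektin genes. Ranges overlapped, at 0.38 to 0.84 for outer arm, 0.40 to 0.87 for central pair and -0.43 to 0.75 for radial spoke genes. The 6 other axonemal or cilium genes had a median of 0.20 (-0.52 to 0.80), the 2 secreted protein genes 0.07 and Zmynd10 0.14. Exon length also differed, at 14458 to 15949 bp in the outer arm genes and 1372 to 3650 bp in the radial spoke genes. These are descriptions over few genes that share the 12 libraries, and the differences between roles were not tested. Within a role the genes could part: Rsph4a had an r of 0.75 and Rsph9 of -0.43, and Tekt1 had 0.83 and Tekt4 -0.27.

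The 4 genes with a negative r were Meig1 (-0.52), Rarres2 (-0.45), Rsph9 (-0.43) and Tekt4 (-0.27), and none passed the test. Rsph9 had 11.6, 8.79 and 9.70 CPM in PBS females, 10.2, 8.64 and 10.2 in PBS males, 10.2, 9.61 and 10.2 in collagen domain females and 10.05, 8.36 and 12.6 in collagen domain males. Rarres2 had 6.74, 3.00 and 3.19 CPM in PBS females, 4.99, 5.41 and 5.99 in PBS males, 4.71, 2.57 and 4.89 in collagen domain females and 2.55, 3.45 and 6.76 in collagen domain males. Meig1, a gene best known from sperm formation, had 1.92, 1.17 and 1.15 in PBS females, 2.01, 1.79 and 1.70 in PBS males, 1.81, 1.23 and 1.86 in collagen domain females and 1.62, 1.03 and 2.24 in collagen domain males. The 4 lowest Meig1 values were all in libraries rich in hindbrain genes. Within the 7 libraries low in them, r was 0.16 for Meig1, 0.08 for Rarres2 and -0.33 for both Rsph9 and Tekt4. Dnah5 and Rsph1, above 0 over 12 libraries, had -0.07 and -0.16 there. Given the level of hindbrain genes over 12 libraries, the partial r was -0.48 for Meig1, -0.37 for Rarres2, -0.34 for Rsph9 and -0.44 for Tekt4. The part of tissue content in these values was not tested.

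Exon length ran along with the correlation, in the set and in all genes. The Spearman rho of exon length and r was 0.53 across the 29 genes and 0.38 across 18971 genes, where genes are not independent replicates. Among genes under 2500 bp the set's 11 genes had a median r of 0.18 and all genes of -0.24, with 0.494% of all genes called positive and 2 of the 11. Between 2500 and 7000 bp the set's 6 genes had 0.72 and all genes 0.12, with 3.14% called and 3 of the 6. At 7000 bp or more the 12 genes of the set had 0.62 and all genes 0.38, with 7.49% called and 2 of the 12. In each length class the set's median lay above that of all genes.

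**Figure D5:**
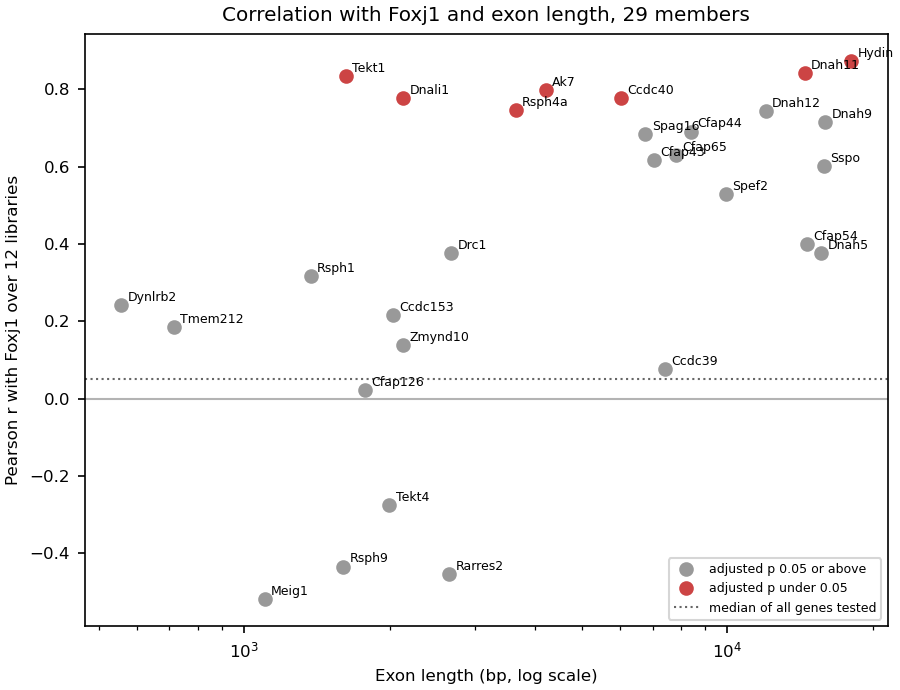
Pearson r with Foxj1 over 12 libraries (vertical axis) against exon length in base pairs on a log scale (horizontal axis) for 29 genes, red where the permutation adjusted p was under 0.05, with the median of all genes as a dotted line at 0.05. Meig1, Rarres2, Rsph9 and Tekt4 lie below 0 whereas all 12 genes of 7000 bp or more lie above 0.

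By promoter, the median r was 0.45 for the 10 genes with the X-box core printed or named above and 0.61 for the 14 other genes with an entry. Hydin and Tekt1, with the core, and Dnah11 and Ak7, without it, were all among the 7 genes that passed. Exons of some of these genes overlap those of a neighbour on the opposite strand, and the library kit does not keep strand. Reads in the shared stretches cannot be told from the neighbour's. The length of these stretches was not measured, and how such reads were counted is not given. Dnali1 overlaps Gnl2 (up to 2519 reads in the whole neighbour gene), Ccdc39 overlaps Ttc14 (up to 3485), Rarres2 overlaps Lrrc61 (up to 801) and Dnah11 overlaps Cdca7l (up to 69).

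Among genes outside the set, the 10 with the largest r were Peg3 (0.94), Ppfibp2 (0.94), Abca4 (0.93), Zdhhc14 (0.92), Wdr6 (0.92), Lrrn4cl (0.91), St8sia2 (0.91), ENSMUSG00000038194 (0.91), Samd4 (0.91) and Igfbp5 (0.91), each over 12 libraries, and none of them is on a cilium list. Ttr, the main transcript of choroid plexus epithelium, had an r of 0.58 (permutation p = 0.0505, adjusted p = 0.163; rho 0.49, permutation p = 0.11). The choroid plexus list had a median r of 0.74 with 8 of 20 genes called positive, the other motile cilium genes 0.34 with 8 of 74, and the ciliary transport and primary cilium genes 0.03 with 2 of 40. Other ependymal genes had a median of 0.22 with 2 of 26 called positive, astrocyte genes 0.13 with 0 of 12, and oligodendrocyte genes 0.37 with 0 of 10. The part of choroid plexus RNA in the correlation of the cilium genes with Foxj1 was not tested.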

How the data were processed

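PolyA RNA was extracted with TRIzol and an RNeasy column with DNase, and libraries were made with the TruSeq kit version 2 and sequenced as paired 75 bp reads, per the labels' protocols. The authors deposited whole-number read counts per Ensembl gene, not normalized. STAR, DESeq2 and GRCm39 are named in the submitters' processing notes without roles; the counting tool, its strand setting and its annotation are not given in the sources used here.

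Counts were normalized by TMM and tested with edgeR 4.0.16 (R 4.3.3) over the 19145 genes kept by filterByExpr, in an additive model of sex and treatment and in a model of the 4 groups, with the spread estimated over all 12 libraries. Benjamini-Hochberg adjustment ran over all genes tested. CPM values are TMM-scaled. Correlations used log2 CPM with a prior count of 2 and 100000 permutations; partial correlations permuted residuals, so their p-values are approximate. Exon lengths came from GENCODE M21 (GRCm38), since no annotation of the files' build was used here. Of 43629 identifiers, 42462 had a symbol; the rest held 0.144% of reads. On simulated counts for treatment over 19145 genes, edgeR recovered 65.5% of genes changed 1.5-fold, 78.4% changed 2-fold and 93.0% changed 4-fold, with 10 false calls in all. The changed genes were drawn from all genes tested and followed the treatment label in every library. In the data 4 libraries go against that label, and the set had a higher median coefficient of variation (0.226 against 0.138 for all genes). The recovered shares are therefore not those of the set, whose recovery was not simulated.

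The genes of the set and the other lists were chosen with earlier results of these data known. Values in every library are given for Foxj1, for the 4 genes of smallest p for treatment, the 2 of smallest p in each other comparison and the 3 of largest ratio of highest to lowest CPM; Hydin, Rsph9, Rarres2 and Meig1 were added after their correlations were seen. From other lists up to 3 genes of smallest p may be named, and the 10 genes of largest r outside the set. The fits were repeated with DESeq2 1.42.0 and limma-voom 3.58.1, with RLE factors, without the filter or with 6 libraries required at 1 CPM, with the threshold at 0.1, with replicate number as a block, without sex, with a prior count of 0.5, and without each library or those against their labels. Mitochondrial share and hindbrain gene level as covariates were chosen after seeing the data. Tanycyte, neural progenitor, meningeal fibroblast and hindbrain lists had median r with Foxj1 of 0.17, -0.19, 0.23 and 0.32 and the subcommissural organ and pineal list -0.00, each with 0 genes called positive.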

Additional observations from a re-analysis of the deposited data

Results flagged for a closer look

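Within 6 libraries of a treatment, 3 values lay apart from the rest by Dixon's criterion at its 95% level on log2 CPM. Dnah5, the outer arm motor gene, was at 4.75 CPM in collagen domain male 2, the lowest of the 6 collagen domain libraries. Spef2, a central pair gene, was at 3.46 CPM in PBS male 2, the highest of the 6 PBS libraries, and at 1.74 CPM in collagen domain male 1, the lowest of the 6 collagen domain libraries. Of 60 groups looked at, 3 held such a value, and chance gives about 3.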

How the results depend on the processing

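No gene of the set was called in any treatment or sex comparison under any alternative run. All genes called numbered 0 by edgeR in each comparison. Without the libraries against the treatment label and without those against either label, they numbered 2 and 2 for treatment over both sexes, 1 and 7 between sexes, 1 and 1 within females and 1 and 1 within males. The collagen domain female arm then held only collagen domain female 2, whose spread was assumed to be that of the other groups. With DESeq2 they numbered 8 between sexes, 3 within males and 1 for the interaction. With 1 library left out they ranged from 0 to 5 between sexes and 0 to 1 within males. The treatment value of Spag16 was -0.029 without the libraries against either label. Without the libraries against the treatment label and against either label it was -0.16 and -0.25 for Cfap126, -0.32 and -0.38 for Cfap54 and -0.021 and -0.27 for Dnah12; with 1 library left out it ranged from -0.058 to 0.16, -0.13 to 0.28 and -0.014 to 0.46. The number of genes of the set correlated with Foxj1 was 0 without the 2 farthest libraries, 0 given mitochondrial share, 11 given hindbrain gene level, 0 within the 7 libraries low in hindbrain genes and 0 to 7 with 1 library left out; over all genes these were 0, 0, 1060, 0 and 0 to 1402. Within those 7 libraries r was 0.078 for Rarres2, 0.16 for Meig1 and -0.33 for both Rsph9 and Tekt4. Over 7 libraries few orderings exist, which limits how small a permutation p can be, so the 0 there says little about the set. Causes of these shifts were not tested, including the smaller number of libraries in some runs. Equal replicate numbers gave correlations of deviations from 0.44 to -0.38, and 4 of 12 libraries correlated best with their own number, so numbers did not pair libraries; with a replicate block 0 genes were called, and Tekt4 was -0.56 and Sspo 0.87. With 39272127 to 52323985 reads in a library, Tekt4 rested on 29 to 73 reads and Sspo on 35 to 169, the most at 3.65 CPM. Such low counts limit how small a change could be seen.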
